A study of Homo sapiens with 9 samples.

Results

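The 240 protein-coding genes of chromosome 19 whose symbol is ZNF followed by a number were examined for DNA:RNA hybrids in SH-SY5Y cells after stable knockdown of TDP-43. They were taken by symbol from the RefSeq annotation of GRCh38, with no use of measured values, and are 240 of 19974 protein-coding genes of chromosomes 1 to 22 and X and 240 of the 1451 on chromosome 19. Each gene was measured over its span plus 1 kb on each side, and a value is the length of that window lying under peaks, its covered length. SH-SY5Y is an established human neuroblastoma line. The shTDP43 cells carried a lentiviral pLVX-U6-shRNA1 hairpin against TDP-43, the product of TARDBP, which binds RNA and DNA, and the shNC cells a negative control hairpin from the same vector. Cells of both kinds were selected in puromycin at 2 µg/mL for 2 weeks and then kept at 1 µg/mL. For DRIP-seq, nucleic acid was cut with BsrGI, EcoRI, HindIII, SspI and XbaI, and 6 µg was immunoprecipitated with S9.6, an antibody that binds DNA:RNA hybrids. The recovered DNA was then sonicated for library making. There were 3 untreated shTDP43 libraries, 3 untreated shNC libraries and, for each hairpin, 1 library treated with RNase H for 6 h, which digests the RNA strand of a hybrid. The labels do not say whether replicates came from separately transduced lines or cultures, so p-values measure only the spread between these libraries. The series title ties TDP-43 deficiency to R-loops and to transposable element activation, and these genes bear on both.

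ZNF genes encode proteins with tandem zinc fingers that read DNA. Most of those on chromosome 19 lie in clusters that grew by tandem duplication, and most carry a KRAB domain. KRAB zinc finger proteins bind transposable elements and recruit TRIM28, which brings in the histone methyltransferase SETDB1 and HP1 proteins to write and hold H3K9me3. ZNF91, for example, binds SVA elements and ZNF93 binds L1 elements. R-loops, in which nascent RNA pairs with its template DNA strand, form most often at CpG-rich promoters and at the 3′ ends of genes.

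Some peak boundaries in the promoters of these genes fell on a cut site of the restriction digest. Of 11134 peak boundaries in the ZNF genes over the 6 untreated libraries, 4058 (36.4%) lay at the same base in another untreated library, and 188 positions were shared by all 6. Within the 261 promoters of these genes in the RefSeq GRCh38.p14 promoter table, each running from 250 bp before to 50 bp after a start, 44 of 167 boundaries (26.3%) lay within 2 bp of the middle of a recognition site of the digest, while such positions made up 0.391% of the promoters. Over all 34781 promoters the share was 40.5% of 11868 boundaries, with 0.483% of positions. A boundary was counted for each library and each promoter that held it, so the same position could count several times. The motifs searched, on both strands, were TGTACA for BsrGI, GAATTC for EcoRI, AAGCTT for HindIII, AATATT for SspI and TCTAGA for XbaI. Boundaries outside promoters were not searched, and how far the digest sets the width of a peak was not tested. The 4 promoters in which most libraries shared a boundary at a site are printed to show where such peaks begin or end, 5′ to 3′ along the gene's strand with that site in capitals. ZNF575 also holds an EcoRI site and ZNF222 a HindIII site, both left in lower case. No boundary of an untreated library lay within 2 bp of the middle of either.
ZNF575: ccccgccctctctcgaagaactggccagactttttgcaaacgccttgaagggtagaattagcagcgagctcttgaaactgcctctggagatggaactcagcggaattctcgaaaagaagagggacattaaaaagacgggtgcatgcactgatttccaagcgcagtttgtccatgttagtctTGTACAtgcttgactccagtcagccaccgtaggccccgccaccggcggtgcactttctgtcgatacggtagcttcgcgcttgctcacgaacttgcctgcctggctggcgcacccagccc
ZNF835: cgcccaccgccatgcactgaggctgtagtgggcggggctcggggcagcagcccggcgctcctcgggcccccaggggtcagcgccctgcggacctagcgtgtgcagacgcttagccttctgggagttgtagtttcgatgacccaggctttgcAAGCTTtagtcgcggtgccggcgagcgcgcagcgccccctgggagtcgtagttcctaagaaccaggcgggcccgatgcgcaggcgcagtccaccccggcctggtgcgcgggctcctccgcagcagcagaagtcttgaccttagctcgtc
ZNF222: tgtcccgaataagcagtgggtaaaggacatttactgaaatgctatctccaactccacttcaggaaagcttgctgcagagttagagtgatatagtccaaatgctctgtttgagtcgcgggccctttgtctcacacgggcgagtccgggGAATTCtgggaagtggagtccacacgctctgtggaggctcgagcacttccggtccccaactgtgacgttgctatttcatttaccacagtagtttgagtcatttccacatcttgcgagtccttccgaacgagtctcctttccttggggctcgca
ZNF507: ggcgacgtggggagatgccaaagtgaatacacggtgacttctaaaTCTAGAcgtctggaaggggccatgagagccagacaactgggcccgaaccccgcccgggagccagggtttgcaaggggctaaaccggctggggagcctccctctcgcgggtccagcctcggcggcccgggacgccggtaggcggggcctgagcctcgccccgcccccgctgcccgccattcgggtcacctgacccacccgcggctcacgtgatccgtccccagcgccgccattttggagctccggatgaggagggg
The ZNF575 promoter (GRCh38.p14 chr19:43532938-43533237, plus strand) held a BsrGI site at which a peak began at base 43533120 in 5 untreated libraries. In the ZNF835 promoter (chr19:56671708-56672007, minus strand) a peak ended at base 56671855, at a HindIII site, in 5 untreated libraries. That end is in genome coordinates, so along the printed strand the peak begins there. The EcoRI site of ZNF222 (chr19:44025129-44025428, plus strand) carried a peak start at base 44025277 in 4 of them, and the XbaI site of ZNF507 (chr19:32345360-32345659, plus strand) one at base 32345406 in 4.

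Promoters of 4 genes on which later values turn are printed with every CpG in capitals, as CpG-rich promoters are where R-loops are best known.
ZNF628: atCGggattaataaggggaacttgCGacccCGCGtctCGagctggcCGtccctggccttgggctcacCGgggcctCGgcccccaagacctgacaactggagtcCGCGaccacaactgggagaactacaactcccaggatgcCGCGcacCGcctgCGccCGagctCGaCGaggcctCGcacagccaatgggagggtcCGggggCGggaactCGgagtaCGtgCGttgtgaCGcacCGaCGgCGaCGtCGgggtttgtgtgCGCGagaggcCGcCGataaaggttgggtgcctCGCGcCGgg
ZNF208: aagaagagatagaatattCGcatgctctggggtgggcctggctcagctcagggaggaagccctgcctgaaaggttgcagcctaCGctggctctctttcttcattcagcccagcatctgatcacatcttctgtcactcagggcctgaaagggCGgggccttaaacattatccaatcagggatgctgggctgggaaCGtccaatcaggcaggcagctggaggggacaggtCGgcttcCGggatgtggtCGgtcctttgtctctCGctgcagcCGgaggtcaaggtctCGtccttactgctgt
ZNF8: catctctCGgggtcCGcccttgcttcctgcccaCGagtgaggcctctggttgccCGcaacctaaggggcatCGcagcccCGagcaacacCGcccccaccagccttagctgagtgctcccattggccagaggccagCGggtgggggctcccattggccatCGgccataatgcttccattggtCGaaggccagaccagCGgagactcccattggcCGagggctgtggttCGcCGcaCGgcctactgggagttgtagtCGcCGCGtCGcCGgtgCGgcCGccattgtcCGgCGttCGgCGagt
ZNF69: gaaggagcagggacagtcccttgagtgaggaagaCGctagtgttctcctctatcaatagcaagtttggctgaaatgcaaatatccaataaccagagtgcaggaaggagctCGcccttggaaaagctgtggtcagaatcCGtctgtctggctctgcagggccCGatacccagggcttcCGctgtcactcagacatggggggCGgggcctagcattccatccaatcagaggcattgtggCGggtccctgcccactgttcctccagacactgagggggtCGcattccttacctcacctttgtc
ZNF628 (GRCh38.p14 chr19:55476367-55476666, plus strand) had 36 CpG and 67.7% GC, and its window was covered over the same length in all 6 untreated libraries. ZNF208 (chr19:22010894-22011193, minus strand) had 10 CpG and 57.0% GC and no peak in any library. ZNF8 (chr19:58278705-58279004, plus strand) had 26 CpG and 67.0% GC, and ZNF69 (chr19:11887532-11887831, plus strand) 8 CpG and 55.7% GC. ZNF8 and ZNF69 had among the smallest p-values of the knockdown comparison, in opposite directions.

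Over all 174 ZNF genes whose promoter in the table starts at the 5′ end of the span, the median promoter had 60.5% GC and 20 CpG. The 97 with a peak at the 5′ end in all 6 untreated libraries had medians of 61.0% GC and 22 CpG, and the 25 with a peak there in none had 57.0% and 18. Among 873 other coding genes of chromosome 19 the same split was wider, at 66.7% GC and 27 CpG for the 490 covered promoters against 58.0% and 8 for the 265 uncovered ones. A GGGG run on the gene's strand, a description and not a site, occurred in 75.9% of the ZNF promoters and in 80.3% of 13792 coding gene promoters.

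The libraries differed in depth, which a narrow peak list shows only indirectly. The lowest background pileup, read back from the fold and p-value of peak summits, was 1.05, 1.68 and 1.94 reads in shTDP43 replicates 1 to 3 and 2.01, 1.93 and 1.62 in shNC replicates 1 to 3. It was 0.991 in the treated shTDP43 library and 0.936 in the treated shNC library. The lists held 57204 to 70016 peaks in shTDP43 and 69453 to 73353 in shNC. Peaks of shTDP43 replicate 1 covered 91.6 Mb, and those of the other 5 untreated libraries 125 to 142 Mb. This library also gave the lowest unscaled value of the 6 for 158 of the 240 ZNF genes. Of the marker genes of adrenergic neuroblastoma, PHOX2A, HAND2 and GATA2 were covered over 7.10, 5.84 and 15.8 kb in every untreated library, while TH was at 0 in all 8. Of the marker genes of other cell types, CD44, PRRX1, SIX2 and LHX1 were at 0 in all 8, while VIM was covered over 5.96 to 6.50 kb in untreated shTDP43 and 6.73 to 6.94 kb in untreated shNC. FN1 had 0, 0 and 0.444 kb in shTDP43 and 1.26, 0.604 and 0.738 kb in shNC, and NOTCH2 0, 0 and 1.33 kb in shTDP43 and 1.54, 0.994 and 0.727 kb in shNC. Hybrid coverage is not expression, and coverage of TARDBP is no check of the knockdown.

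Hybrids were found in nearly all of the ZNF genes, in most of them over a small part. A peak was present in all 6 untreated libraries in 199 of the 240, in some but not all in 27, and in none in 14. Any untreated peak was thus present in 226 of the 240, and in 14103 of all 19974 coding genes. Peaks covered 11.8, 18.4 and 17.9% of the joint ZNF windows (7.32 Mb) in shTDP43 replicates 1 to 3 and 19.8, 17.4 and 17.5% in shNC replicates 1 to 3. The groups overlapped, and the low value was shTDP43 replicate 1. Other coding genes of chromosome 19 were covered over 37.3% ± 4.65 in shTDP43 and 40.0% ± 1.67 in shNC (SD, n = 3 each). ZNF genes of other chromosomes were covered over 13.8% ± 2.66 in shTDP43 and 15.3% ± 1.00 in shNC, and all other coding genes over 7.82% ± 1.45 and 8.82% ± 0.55 (SD, n = 3 each). The ZNF genes of chromosome 19 were thus below their chromosome and above the coding genome in each of the 6 libraries. These differences between sets were not tested. The ZNF genes held 0.940 to 1.05% of a library's covered length in shTDP43 and 0.980 to 1.02% in shNC.

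Single genes ranged over the whole scale. Averaged over the 6 untreated libraries, the percent of the window covered had quartiles of 6.11, 15.6 and 31.7%. The covered length had a median of 4.06 kb and reached 83.9 kb in ZNF536, a zinc finger repressor of neuronal differentiation whose span of 488 kb was the longest. Across the 240 genes the percent covered was lower in longer spans (Spearman's rho −0.41), while the covered length hardly followed span length (rho 0.09). These correlations are across genes of the same libraries, so they are a description. Median span was 23.1 kb, against 12.8 kb in other coding genes of chromosome 19 and 23.5 kb in ZNF genes elsewhere.

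**Figure D1:**
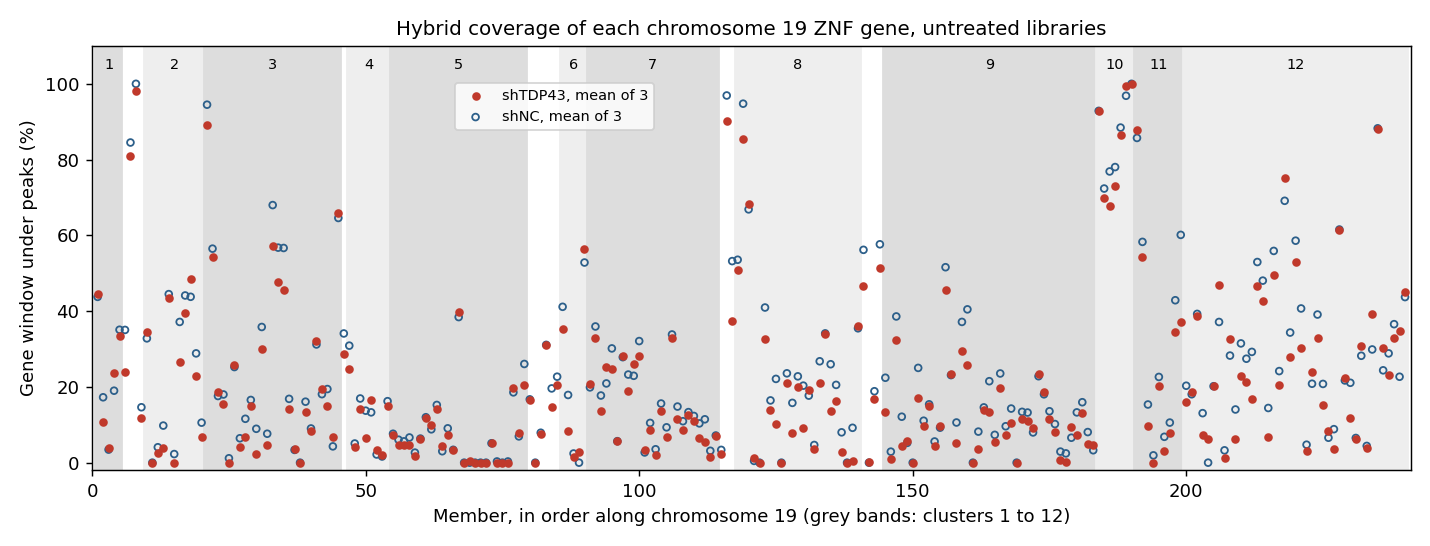
Percent of each gene's window lying under peaks (y axis) for the 240 ZNF genes in order along chromosome 19 (x axis), as the mean of 3 shTDP43 libraries (filled) and of 3 shNC libraries (open). Grey bands mark clusters 1 to 12, of which cluster 10 lies near the top of the scale and part of cluster 5 at 0, and both means of a gene usually lie close together.

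The genes ZNF414, ZNF628, ZNF581 and ZNF580 were the 4 that lay under peaks over at least 90% of the window in every untreated library. ZNF628 was covered over 9.17 kb and ZNF580 over 4.47 kb in each of the 6, and ZNF256 over 5.46 kb in each. In these 3 genes the unscaled length was therefore the same in both hairpins. At the other end, 48 genes were covered over less than 5% of the window on average.

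The genes with the longest covered length were of different kinds. ZNF536 had 50, 80.9 and 84.7 kb in shTDP43 replicates 1 to 3, against 108, 97.1 and 83.1 kb in shNC, or 14.7% and 19.6% of its window on average. ZNF787 had 30.4, 32.2 and 32.0 kb in shTDP43, against 31.1, 29.6 and 31.6 kb in shNC, which was 87.7% and 85.7% of its window. ZNF653 was likewise nearly filled, with 19.8, 22.8 and 22.7 kb in shTDP43 and 23.6, 22.4 and 23.1 kb in shNC. ZNF787 and ZNF653 thus lay largely under peaks, while ZNF536 had a long covered length as a small part of a long span. ZNF254 had 24.5, 36.3 and 30.8 kb in shTDP43 and 35.01, 26.3 and 30.6 kb in shNC. ZNF43 had 12.9, 22.1 and 23.4 kb in shTDP43 and 21.2, 15.2 and 20.3 kb in shNC. ZNF91, the repressor of SVA elements, had 14.4, 20.8 and 21.6 kb in shTDP43, against 26.3, 22.3 and 23.7 kb in shNC. In ZNF254 and ZNF43 the groups overlapped fully, and in ZNF91 every shTDP43 value was below every shNC value, with a log2 change of −0.17 ± 0.08 (SE) which missed the threshold (limma, adjusted p = 0.470).

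The 14 genes with no peak in any untreated library were ZNF699, ZNF563, ZNF208, ZNF676, ZNF729, ZNF98, ZNF723, ZNF681, ZNF404, ZNF230, ZNF285, ZNF615, ZNF534 and ZNF468. ZNF676 had 0.293 kb in the treated shNC library alone, and the other 13 had no peak in any of the 8 libraries. The 14 spans ran from 10.97 kb in ZNF230 to 81.2 kb in ZNF676 with a median of 21.4 kb, close to that of the whole set. The 4 longest of the 13 were ZNF208 (71.1 kb), ZNF723 (46.5 kb), ZNF98 (31.3 kb) and ZNF729 (30.7 kb), and ZNF208, ZNF676, ZNF729, ZNF98 and ZNF723 lie in cluster 5. A list of peaks shows only what was called at this depth, so absence of a peak is not absence of a hybrid. Of the 240 genes, 40 overlap the span of another coding gene, 22 of them that of another ZNF gene of the set, and such genes share peaks.

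Chaining genes at gaps of at most 250 kb gave 12 clusters of at least 5 genes, holding 222 of the 240, and 18 genes outside them. They differed widely in covered share. Cluster 10, from ZNF628 to ZNF580 (chr19:55476617-55645623), holds 7 genes with a median span of 4.08 kb and was covered over 83.4% ± 3.80 in shTDP43 and 85.6% ± 2.03 in shNC (SD, n = 3 each). Cluster 5, from ZNF737 to ZNF91 (chr19:20530276-23395471), holds 25 genes with a median span of 38.3 kb and was covered over 7.89% ± 2.202 in shTDP43 and 8.40% ± 0.75 in shNC. Cluster 10 holds the most compact genes, and cluster 5 lies next to the centromere. Cluster 11, from ZNF787 to ZNF835, followed with 32.5% ± 5.20 in shTDP43 and 36.6% ± 1.39 in shNC, then cluster 12, from ZNF264 to ZNF446 near the end of the long arm, with 24.5% ± 5.51 and 26.1% ± 2.47. Clusters 1, 2, 3 and 8 lay between 17.2 and 22.5% in shTDP43 and between 20.2 and 23.1% in shNC. Clusters 4, 6, 7 and 9 lay between 9.57 and 13.7% in shTDP43 and between 10.6 and 15.3% in shNC.

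In each of the 12 clusters and outside them the shTDP43 mean was below the shNC mean, and shTDP43 replicate 1 was the lowest of the 6 untreated libraries. The 3 shTDP43 values spread further than the means differed in all of them. The widest gaps of the means were in cluster 11 and in cluster 8, which had 17.2% ± 4.01 in shTDP43 and 21.0% ± 1.94 in shNC (SD, n = 3 each).

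**Figure D2:**
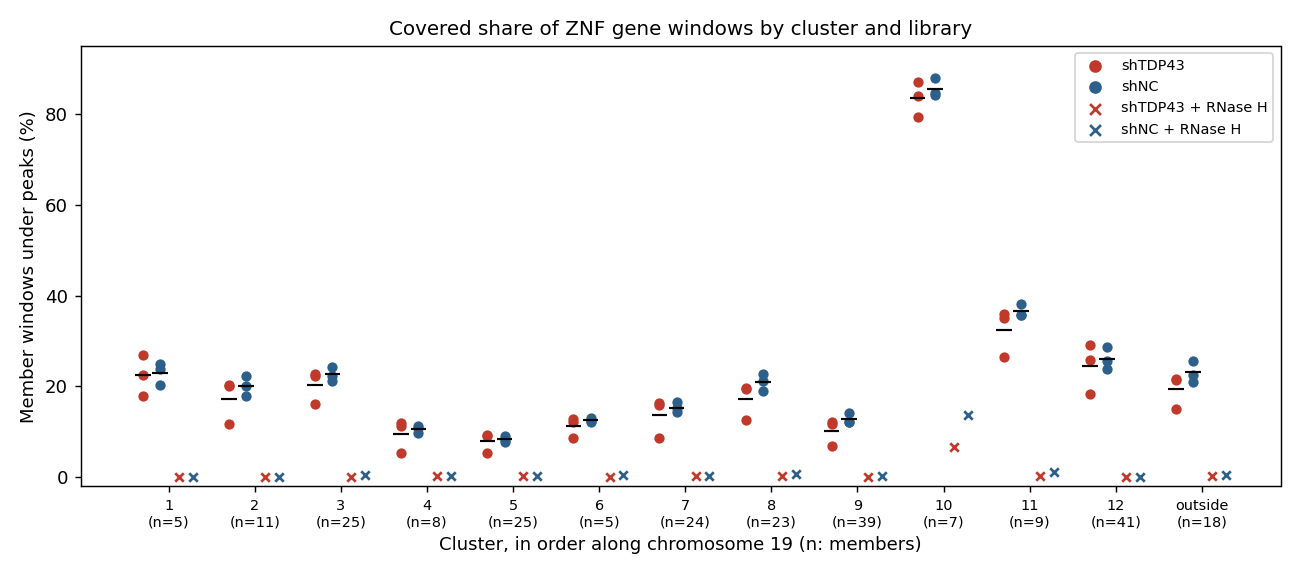
Percent of the joint gene windows of each cluster lying under peaks (y axis), by cluster along chromosome 19 (x axis), with a point per untreated library, a bar at each mean of 3 and a cross for each RNase H library. Cluster 10 stands at 79.4 to 87.9% while no other cluster passes 38.2%, and the crosses lie near 0 outside cluster 10.

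The most covered genes of clusters 1, 6 and 7 showed how hairpins compared gene by gene. In cluster 1, ZNF554 had 6.90, 9.55 and 8.79 kb in shTDP43, against 9.06, 8.56 and 7.16 kb in shNC. ZNF57 had 3.52, 6.66 and 3.68 kb in shTDP43 and 3.33, 3.77 and 4.04 kb in shNC, of which 2.00 kb in each library was the whole 5′ end window. ZNF77 had 3.96, 5.23 and 4.56 kb in shTDP43 and 5.79, 4.24 and 4.45 kb in shNC. ZNF57 and ZNF77 thus differed more within a hairpin than between hairpins. In cluster 6, ZNF792 had 4.58, 5.66 and 6.48 kb in shTDP43 and 5.21, 5.02 and 5.42 kb in shNC. ZNF302 had 3.98, 4.75 and 4.38 kb in shTDP43 and 5.63, 4.78 and 4.91 kb in shNC. ZNF181 had 0, 1.17 and 2.07 kb in shTDP43 and 2.00, 2.37 and 2.67 kb in shNC, with the 0 again in shTDP43 replicate 1. In cluster 7, ZNF420 had 12.2, 17.2 and 21.8 kb in shTDP43 and 21.6, 18.4 and 18.3 kb in shNC. ZNF875 had 14.7, 19.2 and 18.8 kb in shTDP43 and 20.1, 17.7 and 16.6 kb in shNC. ZNF529 had 12.8, 17.3 and 17.3 kb in shTDP43 and 17.9, 17.97 and 21.96 kb in shNC. Most of the covered length of these 3 genes of cluster 7 lay in the body of the gene. In ZNF302 and ZNF529 every unscaled shTDP43 value was below every shNC value, while after scaling they overlapped. In the other 7 of these 9 genes the unscaled values overlapped. After scaling, every shTDP43 value was above every shNC value in ZNF554, ZNF792 and ZNF875.

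Hybrid coverage of the ZNF genes was densest around the 5′ end. Strand came from the promoter table for 210 of the 240 genes, and each end was measured over 1 kb on each side of it, 2.0 kb in all. The 5′ windows were covered over 36.0, 48.1 and 48.8% in shTDP43 replicates 1 to 3 and over 52.6, 51.1 and 48.2% in shNC. The 3′ windows were covered over 13.8, 17.7 and 17.7% in shTDP43 and 19.2, 18.5 and 17.7% in shNC. In each of the 6 libraries the 5′ value was above the 3′ value. Bodies, the span beyond 1 kb of both ends, were covered over 14.2% ± 3.54 in shTDP43 and 16.1% ± 1.36 in shNC (SD, n = 3 each), close to the 3′ windows. Both end windows together held 23.3% ± 1.78 of the covered length in shTDP43 and 23.4% ± 1.06 in shNC (SD, n = 3 each).

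Other coding genes of chromosome 19 had a different shape. Their 5′ windows were covered about as far as those of the ZNF genes, over 47.4% ± 5.27 in shTDP43 and 51.8% ± 2.56 in shNC (SD, n = 3 each). Their 3′ windows, at 53.7% ± 3.65 in shTDP43 and 56.4% ± 0.90 in shNC, were covered further than the 5′ windows. ZNF genes of other chromosomes lay nearer to those of chromosome 19, with 52.5% ± 5.27 of the 5′ windows in shTDP43 and 57.7% ± 3.04 in shNC, and 26.9% ± 3.24 and 28.8% ± 1.89 of the 3′ windows (SD, n = 3 each). In all other coding genes the 5′ windows had 38.2% ± 4.97 in shTDP43 and 42.4% ± 1.90 in shNC, and the 3′ windows 26.1% ± 2.92 and 27.97% ± 1.00. The differences between these sets were not tested.

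Counted by gene, 113 of the 210 ZNF genes (53.8%) had a peak in the 5′ window in all 6 untreated libraries and 42 (20%) in the 3′ window. There were 57 genes (27.1%) with a 5′ peak in all 6 and a 3′ peak in none, and 7 (3.33%) with the reverse. Among 975 other coding genes of chromosome 19, 538 (55.2%) had the 5′ peak in all 6, 578 (59.3%) the 3′ peak in all 6, 39 (4%) only the 5′ one and 59 (6.05%) only the 3′ one. Of the 195 ZNF genes elsewhere 52 (26.7%) had a 5′ peak in all 6 and a 3′ peak in none, and of all 15602 other coding genes 2254 (14.4%). The share was thus much the same in ZNF genes on and off chromosome 19.

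In profiles of 250 bp steps, ZNF coverage peaked next to the 5′ end. At its highest step it was 42.7, 56.9 and 58.3% in shTDP43 replicates 1 to 3 and 60.2, 58.4 and 56.3% in shNC, and each of these steps lay within 0.375 kb of the end. In the step centred 4.875 kb upstream, it was 6.56 to 11% in shTDP43 and 8.18 to 10.5% in shNC. Around the 3′ end there was no such peak, and coverage was lower at the end than 2.125 kb inside the gene in all 6 libraries. In the step centred 2.125 kb inside it was 16.8, 23.04 and 21.5% in shTDP43 and 26.6, 24.03 and 23.9% in shNC, and in the step centred 0.125 kb past the end 11.9, 16.6 and 17.4% in shTDP43 and 16.3, 18.4 and 17.9% in shNC. Deeper in the gene this did not hold in every library. In the step centred 9.875 kb inside coverage was 10.5, 15.2 and 17.6% in shTDP43 and 18.3, 15.9 and 14.4% in shNC. Other coding genes of chromosome 19 peaked lower above their surroundings at the 5′ end, at 43.9 to 55.1% in shTDP43 and 52.3 to 57.2% in shNC. Their level 4.875 kb upstream was 26.7 to 33.6% in shTDP43 and 33.3 to 35.7% in shNC.

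**Figure D3:**
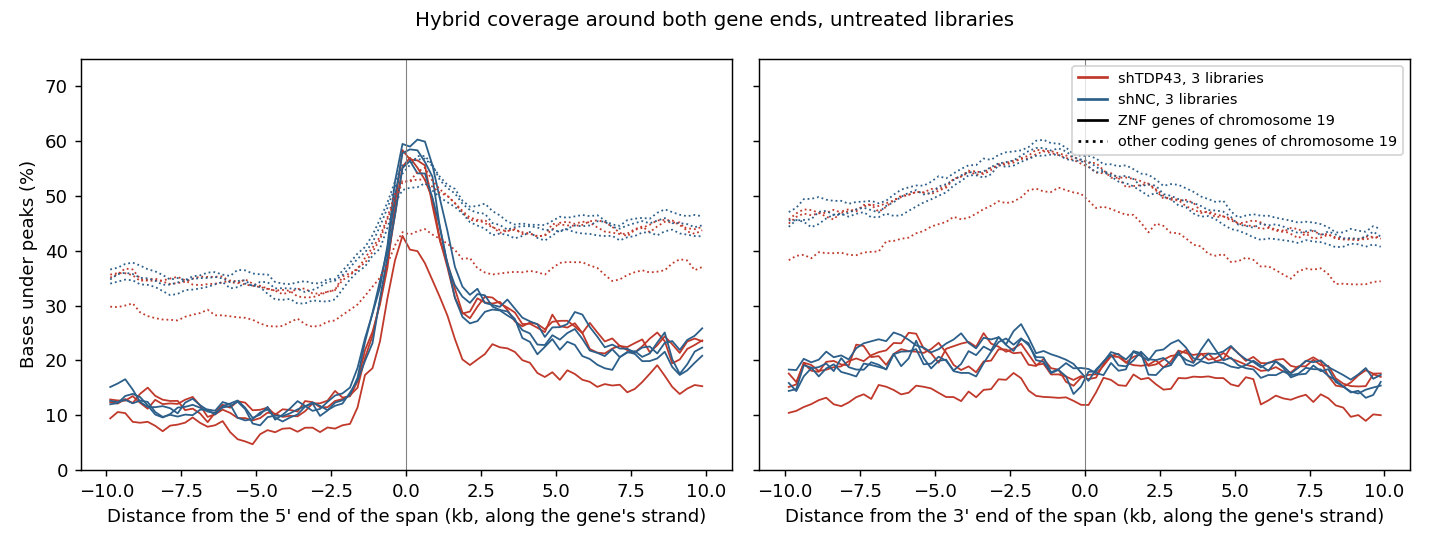
Percent of bases under peaks (y axis) by distance from the 5′ end (left) and the 3′ end (right) of the gene in kb along its strand (x axis), for the 210 ZNF genes with a strand (solid) and 975 other coding genes of chromosome 19 (dotted), with a line for each of 3 shTDP43 and 3 shNC libraries. Solid lines form a narrow peak at the 5′ end and none at the 3′ end, and the lowest line of each kind is shTDP43 replicate 1.

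Cluster 8, from ZNF575 to ZNF180 (chr19:43530835-44500522), did not share this shape. Its 5′ windows were covered over 18.02% ± 1.21 in shTDP43 and 24.2% ± 1.73 in shNC (SD, n = 3 each), and its 3′ windows over 24.4% ± 3.61 and 25.8% ± 1.51, with strand known for 19 of 23 genes. In cluster 5 the contrast was steep, with 47.5% ± 9.63 of the 5′ windows in shTDP43 and 50.4% ± 5.93 in shNC, and 3.53% ± 1.05 and 5.03% ± 1.47 of the 3′ windows (SD, n = 3 each). Cluster 10 was covered alike at both ends, with 83.6% ± 1.89 and 82.9% ± 1.93 at the 5′ end in shTDP43 and shNC and 87.4% ± 1.75 and 89.6% ± 2.12 at the 3′ end. The ends thus differed in cluster 5 and hardly in cluster 10. ZNF91 shows that the 5′ end can hold little of the total: its 5′ window had 1.29 kb in each of the 6 untreated libraries, its 3′ window 0 in each, and the rest of the 14.4 to 26.3 kb lay inside the gene.

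The knockdown comparison tested whether hybrid coverage of a ZNF gene differed between shTDP43 and shNC by more than the spread of the libraries. No ZNF gene passed. Covered lengths were scaled to the median library total, 100 bp was added, and log2 values were fitted with limma over the 12810 coding genes whose mean covered length reached 500 bp. Of these, 22 (0.172%) were called higher in shTDP43 and 96 (0.749%) lower at a Benjamini-Hochberg adjusted p under 0.05. The 213 ZNF genes tested gave 0 calls in either direction, and the other 27 were below the filter. At an unadjusted p under 0.05, 10 ZNF genes were higher in shTDP43 (4.69%, against 3.83% of all genes) and 18 lower (8.45%, against 7.68%). Values of all 3 shTDP43 libraries lay above all 3 shNC values in 17 ZNF genes after scaling (7.98%, against 8.14% of all genes) and below them in 27 (12.7%, against 10.2%). These shares were near the background of all genes.

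Neither the ends nor the bodies gave a call. In the end windows 192 ZNF genes were tested and 0 called, as were 0 (0%) of all 12060 genes. There 1 ZNF gene was higher (0.521%, against 1.86% of all genes) and 9 lower (4.69%, against 4.54%) at an unadjusted p under 0.05. In the bodies 189 were tested and 0 called, against 20 higher (0.181%) and 68 lower (0.615%) of 11059 genes. At an unadjusted p under 0.05, 9 ZNF bodies were higher (4.76%, against 3.88% of all genes) and 15 lower (7.94%, against 7.71%).

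The median log2 change was −0.058 over the 213 ZNF genes, of which 95 were positive and 118 negative. It was 0.046 over all tested genes, 0.14 over 862 other coding genes of chromosome 19 and 0.074 over 196 ZNF genes elsewhere. Scaling moved all of these, by 0.19 for a gene such as ZNF628 that had the same covered length in all 6 libraries. Without scaling the medians were −0.25, −0.15, −0.055 and −0.12 in the same order of sets. Leaving out shTDP43 replicate 1 brought them together, at 0.019 over the ZNF genes (115 positive, 99 negative), 0.028 over all tested genes, 0.028 over the other coding genes of chromosome 19 and 0.028 over ZNF genes elsewhere. The lower median of the ZNF genes thus came with the shallowest library, and the part that its depth has in it was not tested.

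**Figure D4:**
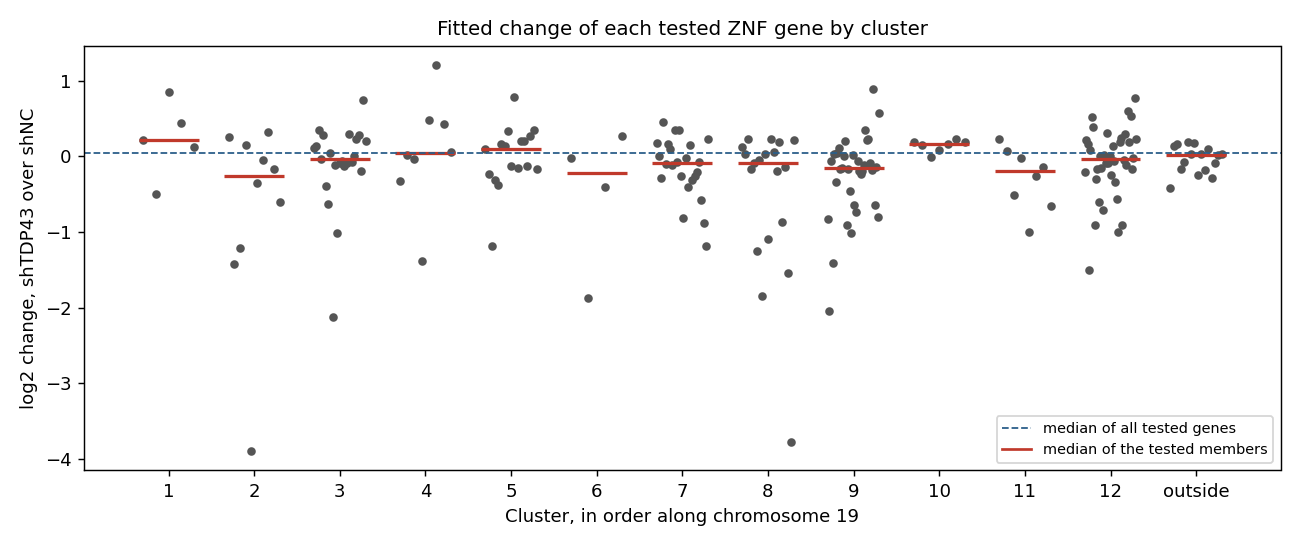
Fitted log2 change, shTDP43 over shNC (y axis), of each of the 213 ZNF genes tested, by cluster along chromosome 19 (x axis), with red bars at cluster medians and a dashed line at the median of all tested genes, 0.046. Most points lie between −1 and 1, and no point passed the test.

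Among genes with lower coverage in shTDP43, the smallest adjusted p-values were just above 0.1. ZNF69 (chr19:11887782-11980222) had 4.26, 8.04 and 6.62 kb in shTDP43 and 12.3, 11.1 and 9.43 kb in shNC, a log2 change of −0.63 ± 0.14 (SE; limma, adjusted p = 0.106). The groups did not overlap, nor did they in the body, with 4.26, 6.94 and 6.62 kb in shTDP43 and 11.8, 10.7 and 9.43 kb in shNC (body log2 change −0.67 ± 0.11, adjusted p = 0.0597). The span of ZNF69 holds ZNF700 and most of ZNF763, and much of its covered length lay in their windows. Outside those windows ZNF69 had 0.844, 2.63 and 1.82 kb in shTDP43 and 5.95, 5.26 and 3.16 kb in shNC, again without overlap. ZNF700 had 3.42, 4.84 and 4.17 kb in shTDP43 and 4.27, 4.54 and 4.92 kb in shNC, and ZNF763 0, 0.573 and 0.638 kb in shTDP43 and 2.06, 1.30 and 1.36 kb in shNC. ZNF528 (chr19:52397849-52418401), whose 5′ window overlaps the window of ZNF880, also stood apart in the body, with a 5′ window under peaks over 2.00, 1.93 and 2.00 kb in shTDP43 and 2.00 kb in each shNC library. Its body had 3.02, 4.80 and 3.62 kb in shTDP43 and 7.87, 6.50 and 6.74 kb in shNC, and the span log2 change was −0.46 ± 0.13 (adjusted p = 0.200). In ZNF528 a filled 5′ end thus stood beside a body with less under peaks in every shTDP43 library than in any shNC library.

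ZNF578 (chr19:52453553-52516882) had 1.29, 3.00 and 2.80 kb in shTDP43 and 6.95, 4.64 and 4.47 kb in shNC, a log2 change of −1.02 ± 0.24 (SE; limma, adjusted p = 0.118). ZNF549 (chr19:57527356-57540876) had 1.95, 2.94 and 2.95 kb in shTDP43 and 5.15, 4.37 and 4.10 kb in shNC, with −0.60 ± 0.16 (adjusted p = 0.153). In both the unscaled groups stood apart. ZNF229 and ZNF560 had peaks mainly in shNC. ZNF229 (chr19:44426254-44448578) had 0, 0.291 and 0 kb in shTDP43 and 2.38, 1.29 and 3.05 kb in shNC (adjusted p = 0.107). ZNF560 (chr19:9445876-9506692) was at 0 in all 3 shTDP43 libraries and had 1.39, 1.62 and 1.27 kb in shNC (adjusted p = 0.162), so no fold is given. Both covered lengths were small beside their spans of 22.3 and 60.8 kb, and their fitted changes depend on the 100 bp added.

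Among genes with higher coverage in shTDP43, ZNF548 (chr19:57389854-57402992) had 6.02, 7.48 and 7.77 kb in shTDP43 and 6.11, 5.87 and 4.88 kb in shNC, a log2 change of 0.52 ± 0.13 (SE; limma, adjusted p = 0.128). ZNF8 (chr19:58278955-58302791) had 8.08, 11.2 and 11.1 kb in shTDP43 and 9.43, 8.18 and 5.55 kb in shNC, with 0.60 ± 0.16 (adjusted p = 0.173). Both overlapped between hairpins before scaling and separated after it, as replicate 1 of shTDP43 was scaled up the most. The CpG-rich 5′ window of ZNF8 had 1.83 kb in each of the 6 libraries, and its body had 6.25, 9.36 and 9.27 kb in shTDP43 and 7.60, 6.34 and 3.72 kb in shNC. ZNF324 had 2.51, 5.01 and 3.29 kb in shTDP43 and 2.97, 2.39 and 1.69 kb in shNC (0.77 ± 0.25, adjusted p = 0.268). ZNF93, the binder of L1 elements, had 4.19, 7.31 and 6.76 kb in shTDP43 and 5.46, 5.29 and 3.85 kb in shNC (0.49 ± 0.16, adjusted p = 0.273). Neither passed. Unscaled, shTDP43 replicate 1 lay inside the shNC range in both, and after scaling the hairpins separated in both. ZNF490 had 1.57, 2.4 and 3.47 kb in shTDP43 and 1.75, 1.51 and 1.47 kb in shNC (0.74 ± 0.25, adjusted p = 0.302). Part of this lay in the window of ZNF791, which overlaps its own. Outside the overlap ZNF490 had 0.422, 1.25 and 2.32 kb in shTDP43 and 0.604, 0.368 and 0.325 kb in shNC. After RNase H it had 0.271 kb there in shTDP43 and 0.470 kb in shNC. ZNF730 had 11.5, 16.1 and 16.2 kb in shTDP43 and 15.2, 12.1 and 13.9 kb in shNC (0.27 ± 0.10, adjusted p = 0.318).

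**Figure D5:**
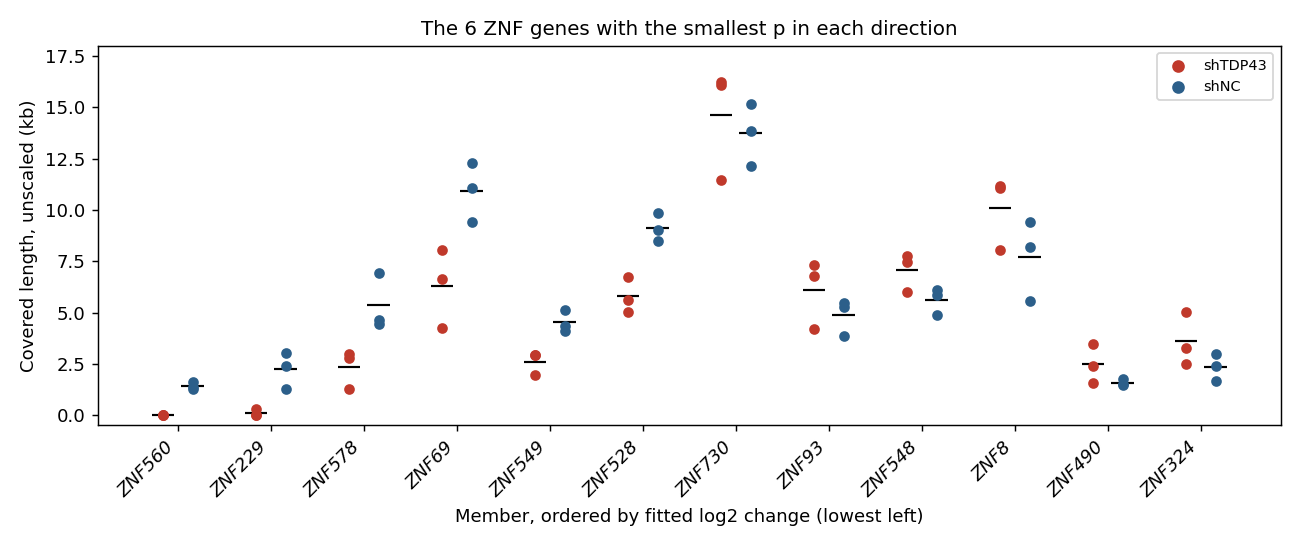
Unscaled covered length in kb (y axis) of the 6 ZNF genes with the smallest p-value in each direction (x axis, ordered by fitted log2 change), with a point per library, shTDP43 left of shNC, and a bar at each mean of 3. In ZNF560, ZNF229, ZNF578, ZNF69, ZNF549 and ZNF528 each shTDP43 point lies below each shNC point, while for the 6 at the right the unscaled points overlap. After scaling, as used in the fit, the hairpins separated in the 6 at the right too.

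Peaks were also merged over the 6 untreated libraries into 99429 regions, of which 1311 touched a ZNF gene window. Regions in all 6 libraries made up 360 of the 1311 (27.5%, against 24.2% of all regions), and 448 (34.2%, against 38.7%) came from 1 library. There were 2 regions (0.153%, against 0.258% of all regions) in all 3 shTDP43 libraries and in no shNC library, and 11 (0.839%, against 1.27%) in all 3 shNC libraries and in no shTDP43 library. The 2 lay in ZNF8 (chr19:58283131-58284739) and ZNF324 (chr19:58470509-58471200), 1609 and 692 bp long. The longest of the 11 lay in ZNF229 (chr19:44427993-44430279, 2287 bp) and ZNF560 (chr19:9497223-9499139, 1917 bp). ZNF536 and ZNF91 held 2 each, and ZNF701, ZNF112, ZNF737, ZNF433 and ZNF461 held 1 each. These counts are small, and how they differ from the shares of all regions was not tested. Whether a region is exonic or intronic was not analysed here.

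RNase H treatment left few peaks in the ZNF genes. Covered length was 15.7 kb in the treated shTDP43 library, against 1172 ± 270 kb in untreated shTDP43 (SD, n = 3), and 33.7 kb in the treated shNC library, against 1334 ± 100 kb in untreated shNC. These are 1.34% and 2.52% of the untreated means. The treated share was 3.07% in shTDP43 and 6.12% in shNC for other coding genes of chromosome 19, 3.14% and 5.40% for ZNF genes elsewhere, and 4.84% and 7.94% for whole libraries. With 1 treated library per hairpin none of these was tested. The treated libraries also had the lowest background pileups. In treated shTDP43 33 peaks touched ZNF genes at a pileup of 0.991, against 740 to 1001 at 1.05 to 1.94 in untreated shTDP43. In treated shNC there were 66 at 0.936, against 932 to 999 at 1.62 to 2.01 in untreated shNC. The part that depth has in the loss of peaks was not tested.

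A treated peak was found in 21 ZNF genes in shTDP43 and 43 in shNC, with 19 in both. Of the 202 ZNF genes with a peak in all 3 untreated shTDP43 libraries, 181 (89.6%) had none after RNase H, against 76.7% of all such genes. In shNC this held for 172 of 213 (80.8%, against 64.3%). Of the treated peaks in ZNF genes, 23 of 33 (69.7%) in shTDP43 and 45 of 66 (68.2%) in shNC overlapped an untreated peak of the same hairpin, compared with 49.1% and 52.6% of all treated peaks.

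Part of what remained after RNase H lay in genes that untreated peaks nearly filled. ZNF628 had 1.48 kb in treated shTDP43 and 3.96 kb in treated shNC, against 9.17 kb in each untreated library. ZNF581 had 2.12 kb in treated shTDP43 and 3.40 kb in treated shNC, against 12.5 to 12.6 kb in untreated shTDP43 and 11.8 to 12.6 kb in untreated shNC. ZNF580, which overlaps ZNF581 and shares its peaks, had 0.642 kb and 1.26 kb, against 4.47 kb in each untreated library. These genes form much of cluster 10, of which 6.72% stayed under peaks in treated shTDP43 and 13.7% in treated shNC, while no other cluster passed 1.06%. ZNF91 had 2.25 kb in treated shTDP43 and 3.78 kb in treated shNC, against untreated means of 18.9 ± 3.98 and 24.1 ± 2.04 kb (SD, n = 3 each). ZNF226 had 0.719 kb and 1.99 kb, and ZNF787 0.720 kb and 1.77 kb. ZNF541, a germ cell factor, was the opposite case, with 1.06 kb in treated shNC and, untreated, 0.284 kb in shTDP43 replicate 2 only.

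Genes of the partners of KRAB zinc finger proteins gave no call in the span fit either. The list held 26 genes that act with these proteins or write or read the silent chromatin they start, and all 26 matched the annotation. Of the 24 tested (DNMT3B and ZFP57 were below the filter), 0 were called in either direction (limma), with 17 positive and 7 negative log2 changes and a median of 0.13, against 0.046 over all tested genes. The smallest p-value among the positive ones was that of EHMT1, an H3K9 methyltransferase gene, with 47.5, 73.8 and 77.1 kb in shTDP43 and 68.9, 59.0 and 61.0 kb in shNC (log2 change 0.24 ± 0.07, adjusted p = 0.200). Its unscaled shTDP43 values lay on both sides of the shNC values, while after scaling each lay above every shNC value. Without shTDP43 replicate 1, EHMT1 was called (0.29, adjusted p = 0.0450). Among the negative ones it was that of TRIM33, a relative of TRIM28, with 3.64, 6.21 and 8.01 kb in shTDP43 and 7.80, 8.21 and 8.95 kb in shNC (−0.35 ± 0.18, adjusted p = 0.519). TRIM28 itself had 6.49, 5.29 and 5.83 kb in shTDP43 and 5.30, 5.47 and 2.48 kb in shNC (log2 change 0.67 ± 0.31, adjusted p = 0.470). In its end windows alone TRIM28 was called higher when the replicate number was added as a block (0.93 ± 0.19, adjusted p = 0.000799), although the numbers were not found to pair the libraries. Without the block the end fit called 0 of 12060 genes, and the calls over all genes with the block were not counted.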

How the data were processed

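DRIP-seq peak lists of 8 libraries were analysed, and 1 input library named in the labels was not analysed here. Per the submitters' processing notes the hg38 build was used, with MACS2 2.2.6, Bowtie2 2.4.4 and SAMtools; settings and the control for peak calling are not given in the sources used here. Peaks were listed per library, per the labels. Each deposited peak has a fold enrichment (a ratio), −log10 p and −log10 q values and a score, all as the authors' caller gave them; the score is the whole part of 10 times −log10 q. They were used only to filter peaks and to read back a relative depth: in 2000 summits per library, at least 99.55% solved to a whole pileup within 0.002. Since reads per gene are not in the lists, neither a count model nor an interval for counting error was computed.

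Gene spans came from the RefSeq GRCh38.p14 annotation and were matched by symbol. Covered length per gene was scaled to the median library total and fitted as log2(bp + 100) in R 4.3.3 using lmFit and trended eBayes of limma 3.58.1, with Benjamini-Hochberg adjustment over all genes and calls under 0.05. Genes needed a mean of 500 bp (end windows 200 bp, bodies 500 bp). On simulated data for the 12810 genes, of which 200 were changed, the span fit recovered 51.0% of log2 changes of 1 and 80.0% of 2, with 3 false calls among 134. Interval sums differed from a brute-force count in 0 of 200 windows. Same-numbered replicates did not deviate together (correlations −0.17, 0.06 and −0.17), so numbers were not used as pairs. Named genes were those with the 6 smallest p in each direction, the 6 with most covered length untreated, the 6 with most after RNase H, the 4 longest without a peak and the 3 most covered in clusters with none named; other genes were picked after seeing their values. The members, lists and rules were chosen with earlier results of these data known. Alternatives are given in the closing section.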

Additional observations from a re-analysis of the deposited data

How the results depend on the processing

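No setting gave more than 2 calls among the ZNF genes, and the causes of the changes below were not tested. Over all genes, against 22 higher and 96 lower calls, there were 1 and 19 without scaling, 40 and 191 with 1000 bp added, 3 and 30 with peaks of a −log10 q from 5 up, 2 and 30 from 10 up, 14 and 61 without the variance trend, 44 higher with equal peak numbers, 52 lower without peaks that overlap an RNase H peak, and 9 higher with the replicate block. Leaving out 1 library gave 6 to 57 higher (57 without shTDP43 replicate 1, 6 without shNC replicate 1) and 12 to 166 lower calls (166 and 12 without the same libraries). Among ZNF span calls, ZNF560 was 1 lower call without scaling, without the filter and without the trend. ZNF560 and ZNF229 were 2 with 1000 bp added, and ZNF8 was 1 higher call with equal peak numbers. Without the filter, 27 of all 14103 genes tested were called higher and 113 lower. In the body fit ZNF560 was 1 lower call without scaling. In the end fit ZNF888 was 1 lower call without scaling, and ZNF568 and ZNF155 were 2 with the replicate block, which changed no other ZNF call but called TRIM28 higher there (0.93, adjusted p = 0.000799); leaving out 1 library gave 0 to 1 (ZNF155 without shTDP43 replicate 2). For the end and body fits, calls over all genes were not counted in these settings. The ZNF median log2 change was −0.25 without scaling (all genes −0.15), −0.21 at a −log10 q of 10 and −0.094 to 0.019 with 1 library left out. Without 1 library the co-repressor list had 0 to 1 calls, in a set of alternatives added after seeing the data. Changes at a −log10 q of 10 were −1.19 for ZNF490, −1.16 for ZNF93 and 0.025 for ZNF528, each reversed; of 221 alternative values of named genes, 218 kept their sign. ZNF coverage was 0.680 Mb in shTDP43 at a −log10 q of 10, and 1.09 and 0.806 Mb in shNC at 5 and 10. The share at gene ends was 13.2% in shTDP43 and 13.02% in shNC with 500 bp windows, 37.0% and 37.5% with 2 kb, and 25.6% and 25.1% at a −log10 q of 5. Chaining at 500 kb gave a highest cluster of 42.1% in shTDP43 and 45.8% in shNC; the lowest in shNC was 10.2% at 500 kb, 5.69% at 100 kb and 6.60% at a −log10 q of 5. After RNase H, at a −log10 q of 5, 5.67 kb in 7 genes remained in shTDP43 and 15.7 kb in 14 genes in shNC; peaks overlapping an untreated one covered 11.6 kb in shTDP43 and 25.4 kb in 26 genes in shNC. A peak list limits all of these: it holds no reads, filled genes cannot show more, and the shallowest library was an shTDP43 one.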
